A study of Mus musculus with 4 samples.

Results

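The solute carrier families Slc16, Slc22, Slc47 and Slco carry organic ions and small carboxylic acids across cell membranes. The 55 protein-coding genes of the deposited table whose names match these families were taken, out of 22058 protein-coding genes and 54149 genes in all. They comprise 14 Slc16, 25 Slc22, 2 Slc47 and 14 Slco genes. Liver RNA of adult female mice (C57BL/6 x 129S4/SvJae) was sequenced, with 2 libraries from mice with a liver-specific Utx knockout and 2 from wild-type (WT) mice matched in sex and age. All mice of both groups were fasted for 16 h and then injected intraperitoneally with 300 mg/kg acetaminophen (APAP), so no library shows these genes without fasting or drug. Each library was a pool of RNA from 2 mice, so p-values measure the spread between pools. The sources used here give neither the Cre driver nor the time from dose to tissue collection.

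Slc16 proteins, the monocarboxylate carriers, move lactate, pyruvate and ketone bodies together with protons, and some members instead carry aromatic amino acids or creatine. Slc22 proteins take up organic cations, organic anions and carnitine, Slco proteins (the organic anion transporting polypeptides) take up bile acids, hormone conjugates and drugs, and Slc47 proteins expel organic cations in exchange for protons. In the liver these carriers sit mostly on hepatocytes, on the blood-facing side for uptake, and they set which drugs, bile acids and fuels enter or leave the cell. Utx, listed as Kdm6a, is a demethylase of lysine 27 of histone H3.

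Recovered reads came to between 16330451 and 17804730 per library, and between 0.148% and 0.196% of them fell on the 55 genes. Kdm6a was at 3.40 and 3.85 FPKM (fragments divided by gene length and library total) in the WT pools, against 2.20 and 2.12 FPKM with the knockout, which did not pass the test (limma adjusted p = 0.0715). Of 13 hepatocyte markers 12 were found and tested, and 0 of them passed. Their log2 fold change was positive for 7 and negative for 5. Their summed levels were 46617 and 57848 FPKM in WT and 53428 and 41682 FPKM in knockout pools. Most of each sum was Alb (24995 and 29597 against 29570 and 21955 FPKM). Neutrophil markers were lower in the same knockout pools, with summed levels of 123 and 188 FPKM in WT and 41.7 and 37.6 FPKM in knockout, and 4 of 9 tested markers fell and 0 rose. Of the other marker lists, 1 of 12 macrophage, 1 of 3 cholangiocyte and 0 of 7 stellate cell genes tested fell and none rose. Over all tested genes, 3.14% were lower and 1.60% higher in knockout at the same threshold (limma adjusted p under 0.05). Mitochondrial ribosomal RNA took 0.244% and 0.251% of WT reads and 0.108% and 0.158% of knockout reads. Whether these shifts bear on the transporter values below was not tested. In bulk tissue, fewer cells of a type and less RNA per cell cannot be told apart.

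The 4 stretches below lie directly before the annotated start of transcription of 4 carriers described below, of which Slc22a27 alone passed the test. None is shown for Slc16a6 and Slc16a13, which passed as well. The first 3 come from the chromosome 19 cluster of Slc22 genes, whose members differed in direction, and the fourth from Slco1b2, the Slco carrier with the largest difference. They are printed 5′ to 3′ on the gene's strand, from RefSeq on GRCm38.p6, and capitals mark matches, on either strand, to the motifs searched.
Slc22a27, chr19:7966028-7966277, minus strand: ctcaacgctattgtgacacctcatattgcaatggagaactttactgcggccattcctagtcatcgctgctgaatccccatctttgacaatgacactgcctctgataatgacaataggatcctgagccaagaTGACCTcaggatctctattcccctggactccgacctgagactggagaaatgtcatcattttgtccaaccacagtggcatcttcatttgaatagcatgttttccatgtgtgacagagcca
Slc22a26, chr19:7802668-7802917, minus strand: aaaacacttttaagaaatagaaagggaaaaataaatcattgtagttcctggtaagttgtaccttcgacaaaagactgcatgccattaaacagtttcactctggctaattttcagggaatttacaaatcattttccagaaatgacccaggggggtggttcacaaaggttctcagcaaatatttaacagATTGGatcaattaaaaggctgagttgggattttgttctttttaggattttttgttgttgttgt
Slc22a30, chr19:8405106-8405355, minus strand: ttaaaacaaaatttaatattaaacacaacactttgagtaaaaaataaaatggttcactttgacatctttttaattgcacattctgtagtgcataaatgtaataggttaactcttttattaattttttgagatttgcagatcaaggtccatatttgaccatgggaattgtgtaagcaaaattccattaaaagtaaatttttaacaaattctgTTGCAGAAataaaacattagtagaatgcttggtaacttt
Slco1b2, chr6:141629268-141629517, plus strand: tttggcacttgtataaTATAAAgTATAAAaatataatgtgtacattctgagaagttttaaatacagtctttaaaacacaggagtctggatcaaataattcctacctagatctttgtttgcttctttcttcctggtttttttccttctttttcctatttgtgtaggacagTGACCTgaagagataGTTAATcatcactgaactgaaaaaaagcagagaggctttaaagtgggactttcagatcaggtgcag

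The motifs searched, with the share of 32851 RefSeq windows of the same length that hold each, were the TATA box TATAAA (12.4%), the CCAAT box CCAAT (33.8%), the E-box CACGTG (6.02%), AP-1 TGANTCA (6.75%) and the cAMP response element TGACGTCA (1.55%). The others were the nuclear receptor half-site AGGTCA (14.02%), C/EBP TTGCNNAA (9.56%), FOXA TGTTTAC (3.17%) and the HNF1 half-site GTTAAT (6.43%). Slc22a27 held 1 nuclear receptor half-site, 119 bases before the start. Slc22a26 held a CCAAT box and Slc22a30 a C/EBP match, so these 3 genes of the cluster shared none of these matches. Slco1b2 held 4 matches, among them an HNF1 half-site 66 bases and a nuclear receptor half-site 81 bases before the start. These are matches of letters and not measured binding sites.

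Knockout and WT pools were compared to ask which of these carriers differ in transcript level when hepatic Utx is deleted. Slc16a13, a lactate carrier, was 4.55-fold higher in the knockout pools. Slc16a6, a carrier implicated in ketone body export from hepatocytes, was 3.43-fold lower. Slc22a27, an organic anion carrier-like gene of the rodent cluster, was 16.1-fold lower, a size that rests on 4 and 10 knockout reads. The ratio for Slc22a27 was 11.1-fold without knockout replicate 1 and 28.9-fold without knockout replicate 2. Of the 55 genes, 24 reached a mean of 1 FPKM and were tested, of which 1 rose, 2 fell and 21 did not pass (limma, Benjamini-Hochberg adjusted p under 0.05). That is 12.5% of the 24, beside 4.74% of all 11900 tested genes. Slc16a13 and Slc22a27 entered the 24 only through the group in which they were high, which leaves Slc16a6. The share therefore does not test the carriers as a set. By direction, 1.60% of all tested genes were higher and 3.14% lower, or 190 and 374 genes. After rescaling to each library's listed reads the split over all genes was 211 and 255, and 2 of the 24 passed.

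Among the 24, an unadjusted limma p under 0.05 was reached by 11 (45.8%), 7 of them higher and 4 lower in knockout. Over all tested genes this share was 27.1%. The knockout pools did not overlap the WT pools from above for 11 carriers and from below for 5, and for 8 the groups overlapped. The same held for 31.6% (higher) and 29.9% (lower) of all tested genes. The median log2 fold change was 0.19 over the 24, and 0.01 over all tested genes. Without WT replicate 1 the median over the 24 was -0.0015. Of the genes that passed, Slc16a13 reached 1 FPKM only through its knockout pools and Slc22a27 only through its WT pools.

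**Figure D1:**
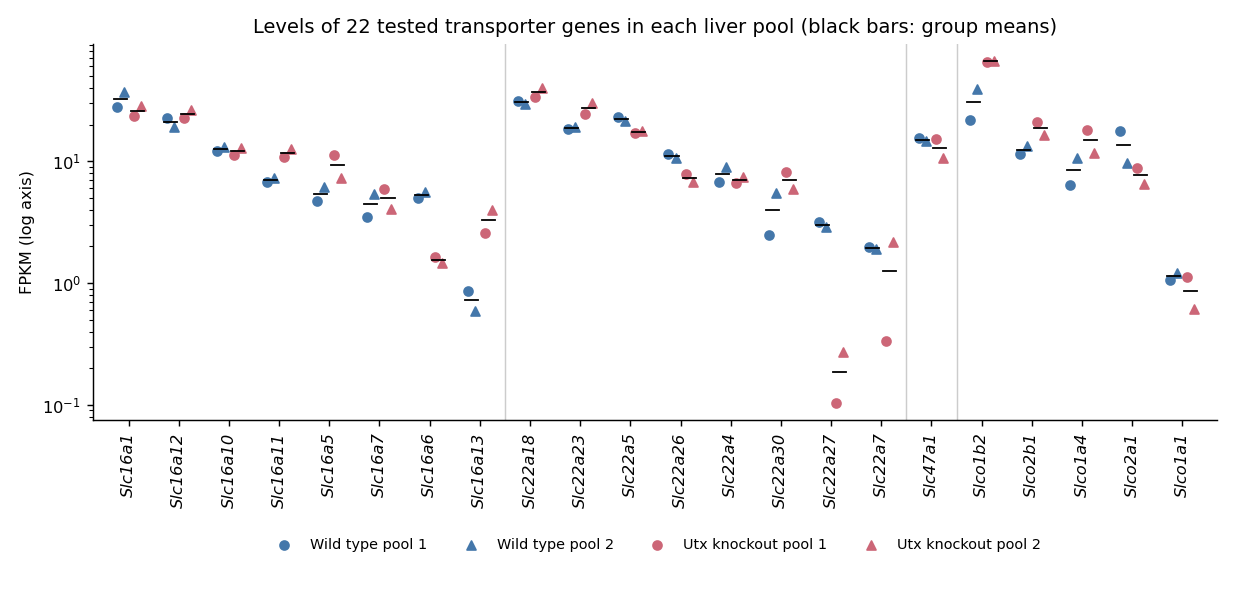
FPKM (log axis) of 22 of the 24 tested carriers in each of the 4 pools, ordered by family and mean level, with black bars for group means. The WT and knockout pools stand well apart for Slc16a6, Slc16a13 and Slc22a27.

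**Figure D2:**
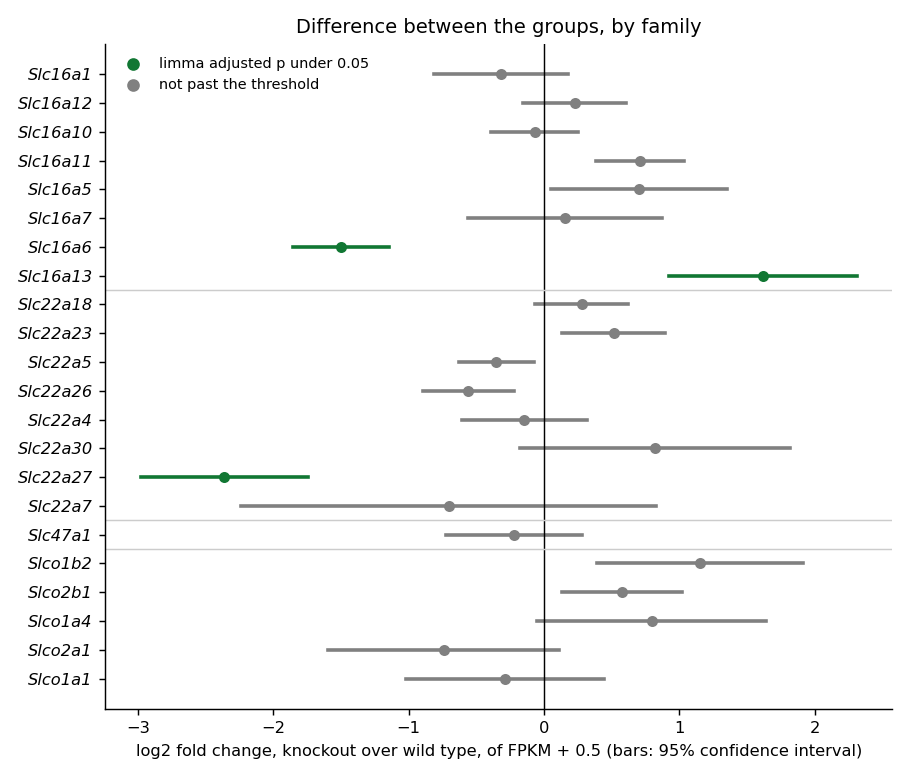
Log2 fold change of knockout over WT for 22 of the 24 tested carriers, with bars for the 95% confidence interval and families divided by grey lines. Slc16a6, Slc16a13 and Slc22a27, in green, passed the limma test, while intervals of Slc22a7, Slc22a30 and Slco1a4 were wide and spanned 0.

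Of 14 monocarboxylate carrier genes 9 were tested, with 1 higher, 1 lower and 7 not past the threshold (median log2 fold change 0.23). Slc16a6 (ENSMUSG00000041920, chromosome 11, 109450855 to 109473598, minus strand of GRCm38) was at 5.04 and 5.59 FPKM in the WT pools, against 1.64 and 1.46 FPKM with the knockout. Both knockout pools lay far below both WT pools, and the values rest on 416, 429, 143 and 122 reads. This amounts to a log2 fold change of -1.50 (SE 0.13), with -1.86 to -1.15 as its 95% confidence interval (limma adjusted p = 0.0258). The call was lost without WT replicate 1 (adjusted p = 0.0720), WT replicate 2 (0.0747) or knockout replicate 1 (0.0651), with log2 fold changes between -1.57 and -1.44 in these 3 fits.

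Slc16a6 starts head to head with Arsg, a lysosomal sulfatase gene on the plus strand, and their spans share 225 bases. Arsg was at 9.02 and 9.93 FPKM in WT and 2.83 and 1.79 FPKM in knockout pools, and it fell as well (log2 fold change -1.85, SE 0.21, limma adjusted p = 0.0315). At its other end Slc16a6 shares 1959 bases with the end of Amz2, a metallopeptidase gene on the plus strand. Amz2 was at 3.72 and 3.60 FPKM in WT and 4.13 and 3.89 FPKM in knockout pools, with no call (log2 fold change 0.12, adjusted p = 0.551). The labels do not state that strand was kept, so reads in the shared bases cannot be assigned to one of the genes.

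Slc16a13 (ENSMUSG00000044367, chromosome 11, 70216789 to 70221064, minus strand) was at 0.864 and 0.587 FPKM in WT pools and at 2.59 and 4.01 FPKM in knockout pools. The knockout pools lay above both WT pools but differed from each other by more than the WT pools did, and the values rest on 38, 24, 120 and 179 reads. On the log2 scale Slc16a13 was 1.62 higher (SE 0.26), the 95% confidence interval being 0.92 to 2.31 (limma adjusted p = 0.0494). This call was close to the threshold and was lost in 10 of 17 alternatives, among them leaving out WT replicate 1 (adjusted p = 0.0948), WT replicate 2 (0.113), knockout replicate 1 (0.0909) or knockout replicate 2 (0.110). The direction was the same in all 17, with log2 fold changes from 1.30 to 2.21.

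Slc16a11, a proton-coupled pyruvate carrier, lies next to Slc16a13 (chromosome 11, 70212752 to 70216417, plus strand). The 2 genes end toward each other with 371 bases between their spans, and variation at this locus has been tied to diabetes risk in people. Slc16a11 was at 6.69 and 7.22 FPKM in WT pools and 10.9 and 12.5 FPKM in knockout pools. The groups did not overlap, and the log2 fold change of 0.71 (SE 0.12) just missed the threshold (limma adjusted p = 0.0528). It passed in 4 of 18 alternatives, with an adjusted p of 0.0324 when protein-coding genes alone were tested, and adjusted p ranged up to 0.143. The next gene on the other side of Slc16a13, Bcl6b, a transcriptional repressor gene, was at 2.51 and 1.68 FPKM in WT and 1.18 and 2.13 FPKM in knockout pools, with overlapping groups.

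The most abundant monocarboxylate carrier was Slc16a1, the main lactate and ketone body carrier, at 28.1 and 37.03 FPKM in WT and 23.3 and 28.4 FPKM in knockout pools. The groups overlapped (log2 fold change -0.32, SE 0.19). Slc16a12, a creatine carrier, was at 22.7 and 19.01 FPKM in WT and 22.7 and 26.2 FPKM in knockout pools. Slc16a10, which carries aromatic amino acids, was at 12.1 and 13.1 FPKM in WT and 11.2 and 12.9 FPKM in knockout pools. For both carriers the knockout values overlapped those of WT.

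Slc16a7, a high-affinity pyruvate and lactate carrier, was at 3.46 and 5.38 FPKM in WT and 5.89 and 4.02 FPKM in knockout pools. These groups overlapped, and the 95% confidence interval of the log2 fold change ran from -0.56 to 0.87.

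Slc16a5, a carrier of drugs such as bumetanide, was at 4.75 and 6.12 FPKM in WT and 11.3 and 7.29 FPKM in knockout pools. Its groups did not overlap, and the log2 fold change of 0.70 (SE 0.25) did not pass (limma adjusted p = 0.163). Gm11695, an antisense gene, shares 981 bases with the span of Slc16a5, and it rose from 10.3 and 8.28 FPKM to 22.6 and 23.2 FPKM (log2 fold change 1.26, SE 0.14, adjusted p = 0.0315). Since strand is not stated, reads of this pair cannot be told apart where they overlap.

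The Slc22 family had 9 tested genes of 25, of which 0 rose and 1 fell, while 8 missed the threshold (median log2 fold change -0.15). Slc22a27 (ENSMUSG00000067656, chromosome 19, 7864388 to 7966027, minus strand) was at 3.16 and 2.87 FPKM in WT pools and at 0.104 and 0.271 FPKM in knockout pools. Reads fell from 115 and 97 to 4 and 10, so the knockout level is known only coarsely. Slc22a27 fell by 2.36 on the scale of log2(FPKM + 0.5) (SE 0.23, limma adjusted p = 0.0288), and its 95% confidence interval was -2.98 to -1.75. The call was lost without WT replicate 1 (adjusted p = 0.0904), WT replicate 2 (0.0802) or knockout replicate 1 (0.0637). With a pseudocount of 0.1 the log2 fold change was -3.50, and with 1 it was -1.76, so its size at these low levels depends on the pseudocount.

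Slc22a27 belongs to a cluster of 8 Slc22 genes that spans 955 kb of chromosome 19. Slc22a26, its neighbour 61.7 kb away and likewise an organic anion carrier-like gene, was at 11.4 and 10.6 FPKM in WT and 7.91 and 6.71 FPKM in knockout pools. Both knockout values lay below both WT values, but the log2 fold change of -0.56 (SE 0.13) did not pass (limma adjusted p = 0.0801). Slc22a30, at the other side beyond Slc22a28 and Slc22a29, was at 2.48 and 5.51 FPKM in WT and 8.18 and 5.92 FPKM in knockout pools. Its log2 fold change was of the opposite sign, 0.82 (SE 0.38, adjusted p = 0.246), with a 95% confidence interval from -0.18 to 1.82. Slc22a29 had 9 and 4 reads in WT and 0 and 0 in knockout pools, Slc22a28 had 2 reads in 1 WT pool, and Slc22a19, Slc22a6 and Slc22a8 were listed at 0 in all 4.

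The genes of this cluster resemble each other. In GENCODE M21 transcripts, 29.9% of the 50-base words of Slc22a27 and 34.2% of those of Slc22a30 also occur in another gene, for Slc22a27 most often Slc22a29 and for Slc22a30 most often Slc22a28. The sources used here do not say how reads with more than 1 match were counted, so the division of reads between these genes is uncertain. For Slc22a27, 70.1% of words were its own. Summed over Slc22a27 to Slc22a30, reads came to 265 and 395 in WT and 495 and 352 in knockout pools, and those groups overlapped. Most of these reads were listed for Slc22a30 (141 and 292 in WT, 491 and 342 in knockout pools). The sum therefore cannot show whether reads of Slc22a27 were listed under a relative. Between Slc22a26 and Slc22a27 lies an unannotated transcript model on the plus strand, at 4.08 and 3.36 FPKM in WT and 0.853 and 1.44 FPKM in knockout pools (log2 fold change -1.38, adjusted p = 0.0523).

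**Figure D3:**
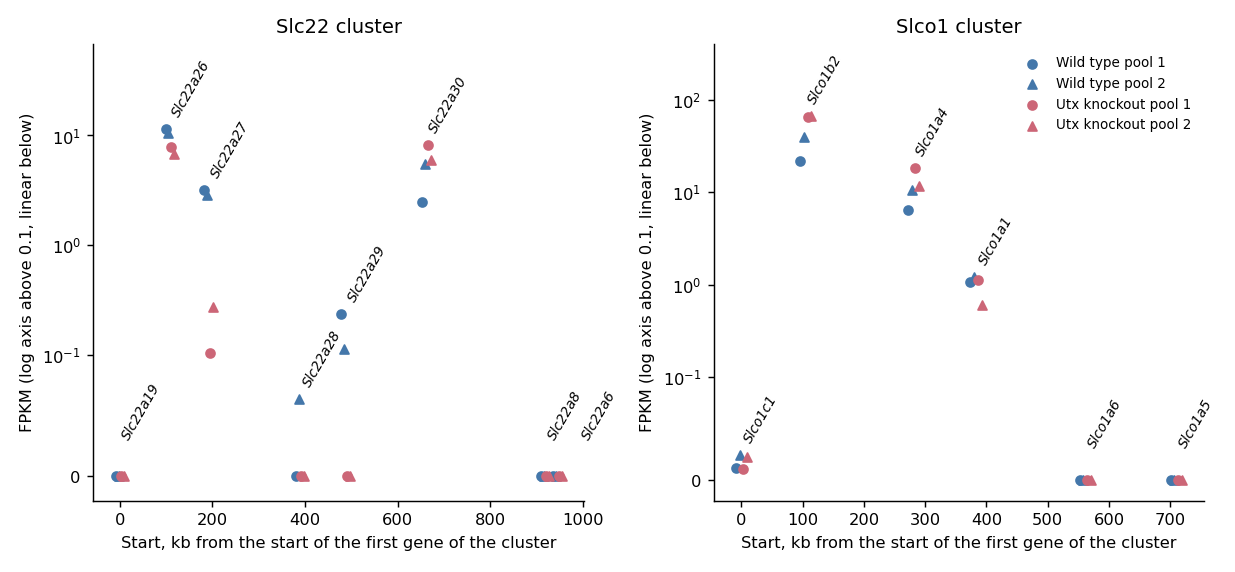
FPKM of each gene in the Slc22 cluster of chromosome 19 (left) and the Slco1 cluster of chromosome 6 (right), against the distance in kb of each gene's start from that of the first gene. Along the Slc22 cluster the knockout pools lay below WT at Slc22a26 and Slc22a27 and above at Slc22a30, and along the Slco1 cluster they lay above at Slco1b2 and Slco1a4.

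Slc47a1, which expels organic cations into bile, was at 15.5 and 14.5 FPKM in WT and 15.2 and 10.7 FPKM in knockout pools, with overlapping groups (log2 fold change -0.22, SE 0.19). Slc47a2, its mainly renal relative, had at most 5 reads in a pool.

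Slc22a5, the carnitine uptake carrier, was at 23.1 and 21.5 FPKM in WT and 16.9 and 17.8 FPKM in knockout pools. Both knockout values lay below both WT values (log2 fold change -0.35, SE 0.10, adjusted p = 0.122), and 26.3% of its 50-base words also occur elsewhere, mostly in Slc22a21. Slc22a4, the ergothioneine carrier of the same group on chromosome 11, was at 6.70 and 9.04 FPKM in WT and 6.57 and 7.43 FPKM in knockout pools, with overlapping groups. Slc22a21, which lies between them, was under 1 FPKM in all pools and not tested.

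Among the less studied Slc22 genes, Slc22a18, an imprinted gene, was at 31.4 and 29.4 FPKM in WT and 33.9 and 40.2 FPKM in knockout pools. Slc22a23, an orphan carrier, was at 18.4 and 19.3 FPKM in WT and 24.2 and 30.3 FPKM in knockout pools, with a log2 fold change of 0.51 (SE 0.14, adjusted p = 0.112). In both cases the knockout pools were the higher ones and neither gene passed. Slc22a7, a hepatic organic anion carrier, was at 1.97 and 1.90 FPKM in WT pools and 0.335 and 2.18 FPKM in knockout pools. Knockout replicate 1 stood apart here with 12 reads, against 60 to 75 in the other pools, and without it the log2 fold change turned from -0.70 to 0.14.

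Of 14 Slco genes, 5 were tested and 0 passed, with 2 at an unadjusted limma p under 0.05 and a median log2 fold change of 0.58. Slco1b2, the hepatocyte carrier of bile acids, bilirubin conjugates and many drugs, was at 22.0 and 39.1 FPKM in WT pools and 65.5 and 66.4 FPKM in knockout pools. The knockout pools were close to each other and above both WT pools, which were spread more widely (WT 30.6 ± 12.1 and knockout 65.98 ± 0.670 FPKM, SD, n = 2 pools per group). The knockout mean was 2.16-fold higher, with a log2 fold change of 1.16 (SE 0.29, 95% confidence interval 0.39 to 1.92) and a limma adjusted p of 0.0941. It passed in 1 of 18 alternatives, limma voom on recovered reads (adjusted p = 0.0450).

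Slco1a4, a carrier of bile acids and cardiac glycosides in the same chromosome 6 cluster, was at 6.35 and 10.6 FPKM in WT and 18.2 and 11.7 FPKM in knockout pools. The groups did not overlap, though the lower knockout pool was close to the higher WT pool (log2 fold change 0.79, SE 0.32, adjusted p = 0.201). Slco1a4 passed in 1 of 18 alternatives (limma adjusted p = 0.0497). That was the block with crossed replicate numbers, added after seeing the data. Slco1a1, which in mice is more abundant in male than in female liver, was near the limit of testing at 1.06 and 1.22 FPKM in WT and 1.13 and 0.608 FPKM in knockout pools. Slco1a5 and Slco1a6 of this cluster were listed at 0 in all 4 pools, and Slco1c1, a thyroxine carrier, had at most 2 reads.

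Slco2b1, a widely expressed carrier of steroid conjugates and drugs, was at 11.4 and 13.4 FPKM in WT and 21.2 and 16.5 FPKM in knockout pools (log2 fold change 0.58, SE 0.17, adjusted p = 0.119). Slco2a1, the prostaglandin carrier, was at 17.7 and 9.66 FPKM in WT and 8.86 and 6.56 FPKM in knockout pools. Its WT pools differed from each other more than WT replicate 2 did from the knockout pools, and the log2 fold change of -0.74 (SE 0.32) did not pass (adjusted p = 0.225). Slco2a1 is known from endothelial cells. Sinusoidal endothelial markers had summed levels of 88.7 and 85.97 FPKM in WT and 63.96 and 67.1 FPKM in knockout pools, with 0 of 9 past the threshold and a median log2 fold change of -0.25. Cholangiocyte markers summed to 264 and 102 FPKM in WT and 38.9 and 17.6 FPKM in knockout pools, most of it Spp1 (247 and 89.6 against 33.7 and 12.9 FPKM), a gene short of the threshold. Sox9 was the 1 cholangiocyte gene that fell, and the groups of Epcam and Krt19 overlapped. The part of either list in the Slco2a1 values was not tested.

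The remaining 31 genes averaged under 1 FPKM and were not tested. Of these, 8 were listed at 0 in all 4 pools, and 7 reached 0.5 FPKM in at least 1 pool. The highest was Slco3a1, at 1.01 and 0.946 FPKM in WT and 0.682 and 0.943 FPKM in knockout pools, just under the filter, while Slco1a1 lay just above it. The other 30 stayed below 1 FPKM in every pool; those named above are given for their place next to tested carriers. The renal anion carriers Slc22a6, Slc22a8 and Slc22a12 were all listed at 0, and proximal tubule markers summed to at most 0.0472 FPKM in any pool, with Slc34a1, Slc5a12 and Kap at 0. With no filter on low values 47 of the 55 genes were tested and 0 passed (limma adjusted p), as did 0 genes of the whole table, while 4388 genes had an unadjusted p under 0.05.

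**Figure D4:**
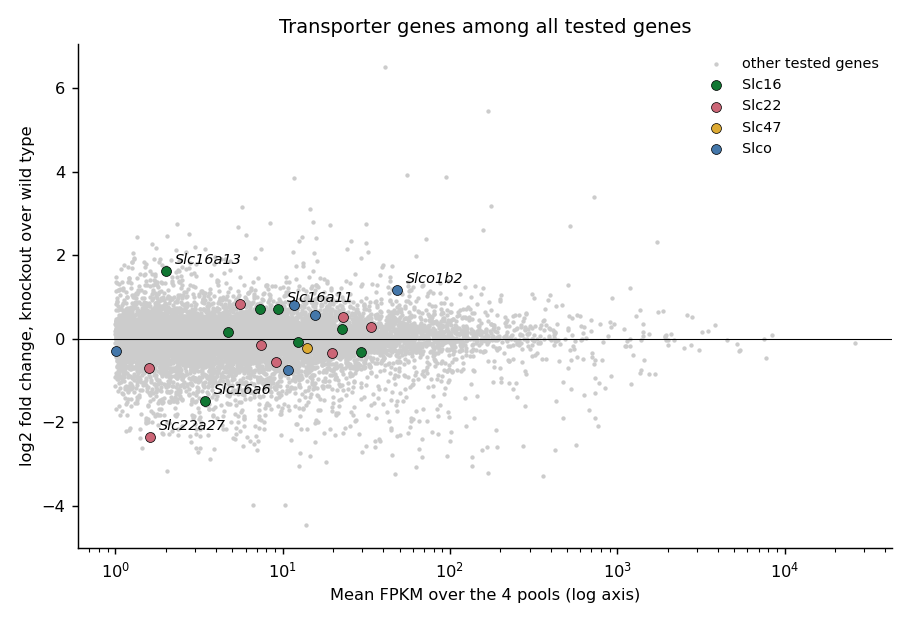
Log2 fold change against mean FPKM (log axis) for all 11900 tested genes in grey, with 22 of the 24 carriers coloured by family. Slc22a27 and Slc16a6 lie toward the lower edge and Slc16a13 toward the upper edge at low mean levels, while the abundant carrier Slco1b2 sits moderately above 0.

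Genes that work with these carriers were followed as lists, which were chosen with earlier results of these data known. The counts below therefore describe the lists and do not test them. Of 14 tested regulators of hepatic transporters, 4 rose, 0 fell and 10 missed the threshold, where 1.60% of all tested genes were higher and 3.14% lower. Their median log2 fold change was 0.54, beside 0.01 for all tested genes. It was positive for 11 of them and negative for 3 (Nfe2l2, Pdzk1 and Cebpb). Nr1i2 and Nr1i3, the drug-sensing nuclear receptors PXR and CAR, rose from 10.5 and 12.7 to 27.97 and 27.2 FPKM and from 7.32 and 10.2 to 20.6 and 21.98 FPKM (limma adjusted p = 0.0313 and 0.0426). Ahr, a receptor for aromatic compounds, rose from 4.25 and 5.94 to 13.5 and 12.04 FPKM (adjusted p = 0.0426). Nr0b2, a repressor induced by bile acids, rose from 3.50 and 4.05 to 7.73 and 9.64 FPKM (adjusted p = 0.0419).

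Among 14 tested carriers of other families, 5 rose, 1 fell and 8 did not pass (median log2 fold change 0.57). Over all tested genes, 1.60% were higher and 3.14% lower, and this list too was chosen with earlier results known. Slc2a2, the hepatic glucose carrier, rose from 12.9 and 13.2 to 39.3 and 30.3 FPKM (limma adjusted p = 0.0315). Abcg5, a subunit of the canalicular sterol exporter, and Abcb11, the bile salt exporter, rose as well, with log2 fold changes of 1.11 and 1.06. Abcb1a, a drug exporter, fell from 5.16 and 5.06 to 1.72 and 1.50 FPKM (adjusted p = 0.0265). Slc10a1, the main sodium-dependent bile acid uptake carrier, named for its role, was at 76.01 and 100.3 FPKM in WT and 216 and 143 FPKM in knockout pools. The groups of Slc10a1 did not overlap, and it did not pass (log2 fold change 1.00, SE 0.26, adjusted p = 0.101).

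The 3 lists of genes that handle substrates of the carriers gave no call. Of 11 tested genes of lactate, pyruvate and ketone body handling 0 passed (median log2 fold change 0.16). Bsg, the chaperone that brings monocarboxylate carriers to the membrane, named for its role, was at 173 and 190 FPKM in WT and 210 and 196 FPKM in knockout pools. Pdk4, which restrains pyruvate oxidation in fasting, was at 93.3 and 87.8 FPKM in WT and 16.03 and 35.6 FPKM in knockout pools (log2 fold change -1.90, SE 0.39, adjusted p = 0.0674). Pdk2, its paralog, was at 4.30 and 4.22 FPKM in WT and 14.9 and 8.35 FPKM in knockout pools (log2 fold change 1.29, adjusted p = 0.0748). Of 8 carnitine genes 0 passed (median 0.15), and of 5 tested thyroid hormone genes 0 passed (median 0.51). At an unadjusted p under 0.05, these 3 lists held 4, 2 and 2 genes, where the share over all tested genes was 27.1%.

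**Figure D5:**
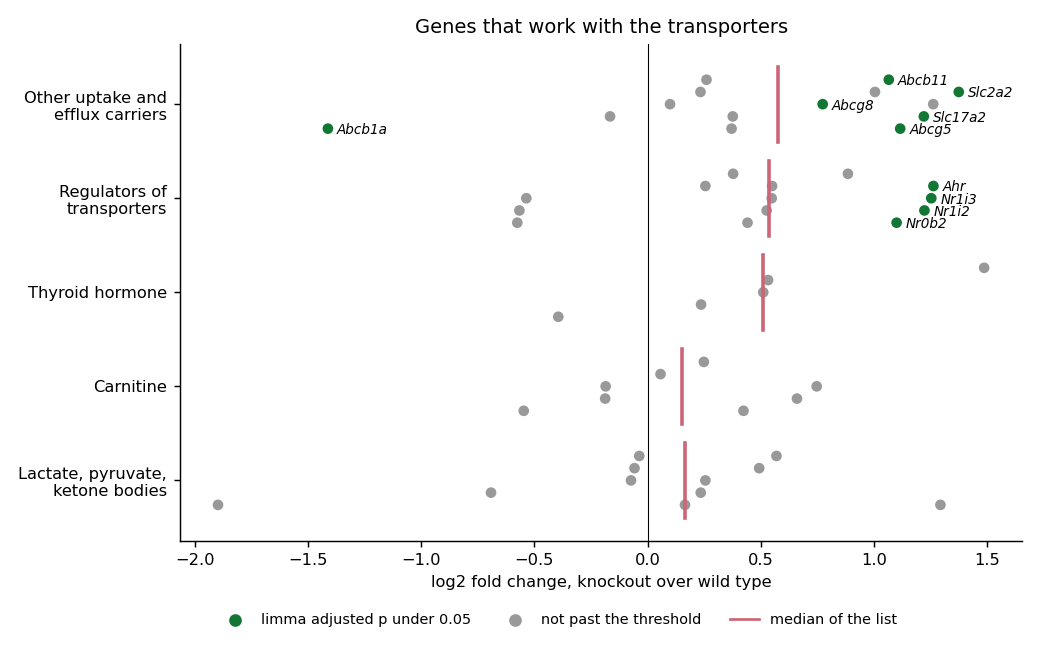
Log2 fold change of the tested genes in 5 lists of genes that work with the carriers, with points for genes and a red line for the median of each list. Regulators and other carriers held all the genes past the limma threshold, in green, of which Abcb1a alone was lower in knockout.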

How the data were processed

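The authors deposited 1 table of FPKM values per gene and library, with gene names, biotypes and positions in its columns, and per the submitters' processing notes reads were aligned with HISAT2 2.0.5 to mm10. The counting tool, its annotation release, its use of strand and its treatment of reads with several matches are each not given in the sources used. FPKM is a read count divided by gene length and by a library total, so it hides depth. The deposited FPKM values were whole multiples of the worth of 1 read for 100.0% of values (within 0.01 read), which gave back the reads per gene. The library totals that the values imply were 1.02 and 0.943 times the recovered reads in WT replicates 1 and 2. In knockout replicates 1 and 2 they were 1.00 and 1.05 times the recovered reads. Rescaling to listed reads divides by the recovered reads instead.

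The groups were compared with limma 3.58.1 in R 4.3.3 on log2(FPKM + 0.5), with a variance trend, over the 11900 genes whose mean over all 4 libraries was at least 1 FPKM. Fold changes on this scale understate the change of low genes. P-values were adjusted by Benjamini-Hochberg over all tested genes with a threshold of 0.05. With 2 pools per group the fit had 2 residual degrees of freedom. The limma fit added 2.59 prior degrees of freedom, so each p-value rests in part on the variance of other genes. Full statistics were planned for members past the threshold and for the 6 largest differences short of it, and the 4 values for other members averaging at least 1 FPKM. Lists of partner genes and of markers of hepatocytes, neutrophils, macrophages, sinusoidal endothelial cells, cholangiocytes, stellate cells and kidney tubule were fixed by name. The members and lists were chosen with earlier results of these data known. Alternatives changed the pseudocount, filter, scaling, variance model, gene set and libraries. Promoter windows (250 bases before a start) came from RefSeq on GRCm38.p6, with windows for 16 of the 24 tested carriers. The values of 2 tested carriers, neither past the threshold, enter the counts and medians but are not reported here singly.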

Additional observations from a re-analysis of the deposited data

How the results depend on the processing

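The count of carriers past the threshold (3) was 1 with a filter of 5 FPKM (Slc16a11, the 3 being too low to be tested there), 0 with no filter and 5 with voom on recovered reads. It ranged from 0 to 2 when 1 library was left out: 0 without WT replicate 1, WT replicate 2 or knockout replicate 1, and 2 without knockout replicate 2. In those fits the lone pool of a group is assumed to vary like the other group. The count over all genes (564) was 0 with no filter, 280 without the variance trend, 909 with voom (440 higher, 469 lower), 1014 with protein-coding genes alone, 867 with a minimum of 50 reads, and from 0 to 234 with 1 library left out. With 1 library left out, between 2040 and 2662 genes still had an unadjusted limma p under 0.05.

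With the replicate number as a block, 310 genes and 2 carriers passed. No label pairs the samples by number. The differences between replicates 1 and 2 correlated at -0.14 across genes between the groups. With a single difference per group, this cannot decide whether the numbers pair the samples. With the numbers crossed, an alternative added after seeing the data, 552 genes and 4 carriers passed.

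The sign of the log2 fold change turned in 5 carriers, none past the threshold, and only when 1 library was left out. The range was -0.13 to 0.44 for Slc16a7 (-0.09 without knockout replicate 1), -0.35 to 0.057 for Slc22a4, -0.17 to 0.028 for Slc16a10, -1.54 to 0.14 for Slc22a7 and -0.47 to 0.020 for Slc47a1. The cause of these changes was not tested. At these depths, carriers under 1 FPKM rest on few reads and were not tested in the reported fit.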
